A study of Bos taurus with 36 samples.

Results

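The 9 genes described here encode membrane carriers of glucose and fructose in cattle: SLC2A1, SLC2A2, SLC2A3, SLC2A4, SLC2A5, SLC2A8, SLC2A10, SLC5A1 and SLC5A2. They were chosen by symbol, by matching the Entrez gene identifiers of the count table to the bovine RefSeq gene table. All 9 were found among the 35092 genes of the table, with the identifiers 282356, 282357, 282358, 282359, 282868, 282867, 516135, 282361 and 399680 in that order. The RefSeq table at hand is of a later assembly than the one the reads were mapped to, so no coordinates are given.

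The libraries came from 10 male fetuses collected on Day 42 of gestation and from the heifers that carried them. A Day 7 embryo had been transferred either on Day 7 of the heifer's cycle (ET_D7, fetuses 1 to 5) or on Day 9 (ET_D9, fetuses 6 to 10). Numbers 1 to 10 follow increasing weight, fetus 1 having 1.253 g and fetus 10 having 1.69 g. The heaviest ET_D7 fetus (1.37 g) was lighter than the lightest ET_D9 fetus (1.396 g), so weight and transfer group cannot be fully told apart. RNA was sequenced from the heart (9 fetuses, without fetus 7), the gonads (9, without fetus 2), the liver (8, without fetuses 6 and 7) and the blood of all 10 heifers. Each organ library is labelled as one fetus, though the counts of 5 of them were not independent of other libraries, as given below. Blood libraries were made with another kit than organ libraries, so kit and tissue cannot be told apart between them, and blood levels are given beside organ levels without a test.

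Carriers of the SLC2A family (GLUT proteins) let hexoses move down their gradient across a membrane. Those of the SLC5A family (SGLT proteins) couple glucose uptake to sodium entry and can work against the gradient. In ruminants the placenta turns part of the maternal glucose into fructose, which is abundant in fetal blood and fluids. A fetus receives nearly all of its hexose across the placenta. Bulk libraries do not tell fewer cells of a type from less RNA per cell.

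Total counts ran from 18231089 to 40812354 per library. Among counts of 1 to 20, 47.2 to 77.3% were even in the organ libraries and 83.8 to 87.9% in blood. A count may thus not be a single fragment, and small counts below may stand for fewer fragments. Whether both reads of a pair were counted was not tested. The share of mitochondrially encoded genes was between 17.1 and 57.3% for hearts, 16.3 and 36.8% for livers, 3.31 and 7.23% for libraries labelled gonads, and 2.14 and 3.29% for blood. The heart and liver libraries carried their defining markers. In the 9 libraries labelled gonads, the markers of a gonad were low or absent: the Sertoli cell factor GATA4 had 0 to 6 counts, against 5296 to 9073 in the heart, SOX9 had 14 to 364, the germ cell gene DDX4 had 0 to 15, and 4 germ cell markers summed to at most 0.559 CPM, which is the count scaled to the size of the library. The kidney lineage factors PAX2 (3979 to 7720 counts) and SIX2 (1478 to 2785) were high in all 9 of them, and 8 of 10 markers of mesonephros or kidney had at least 10 counts in every one. They are therefore called the libraries labelled gonads.

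In the organs, 5 libraries were not independent of the others, which was found from the counts. The share of genes whose count lay within 1 counting standard deviation of a multiple or weighted sum of other libraries of the same organ was 92.7% for gonad 8 (from gonad 6), 82.7% for gonad 6 (from gonads 7, 9 and 10), 77.7% for liver 1 (from liver 2), 87.0% for liver 9 (from livers 8 and 10) and 63.7% for heart 1 (from hearts 2 to 5). In the other 30 libraries apart from liver 2 this share was 9.41 to 33.3%. Where one fetus is left out below, a dependent library labelled as another fetus stays in the fit. Counts close to those of the fetus left out can thus remain, as with liver 9 when fetus 8 or 10 is left out. Means and SDs below use the 21 organ libraries that are left (8 hearts, 7 labelled gonads, 6 livers) and the 10 blood libraries, ranges use all libraries, and tests on all 26 organ libraries are followed by the test on the 21 where it changes a call. Levels are CPM scaled by edgeR's TMM factors over the 26 organ libraries, or over the 10 blood libraries for blood. Transcript lengths were not at hand, so levels are compared between tissues for one gene and not between genes.

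**Figure D1:**
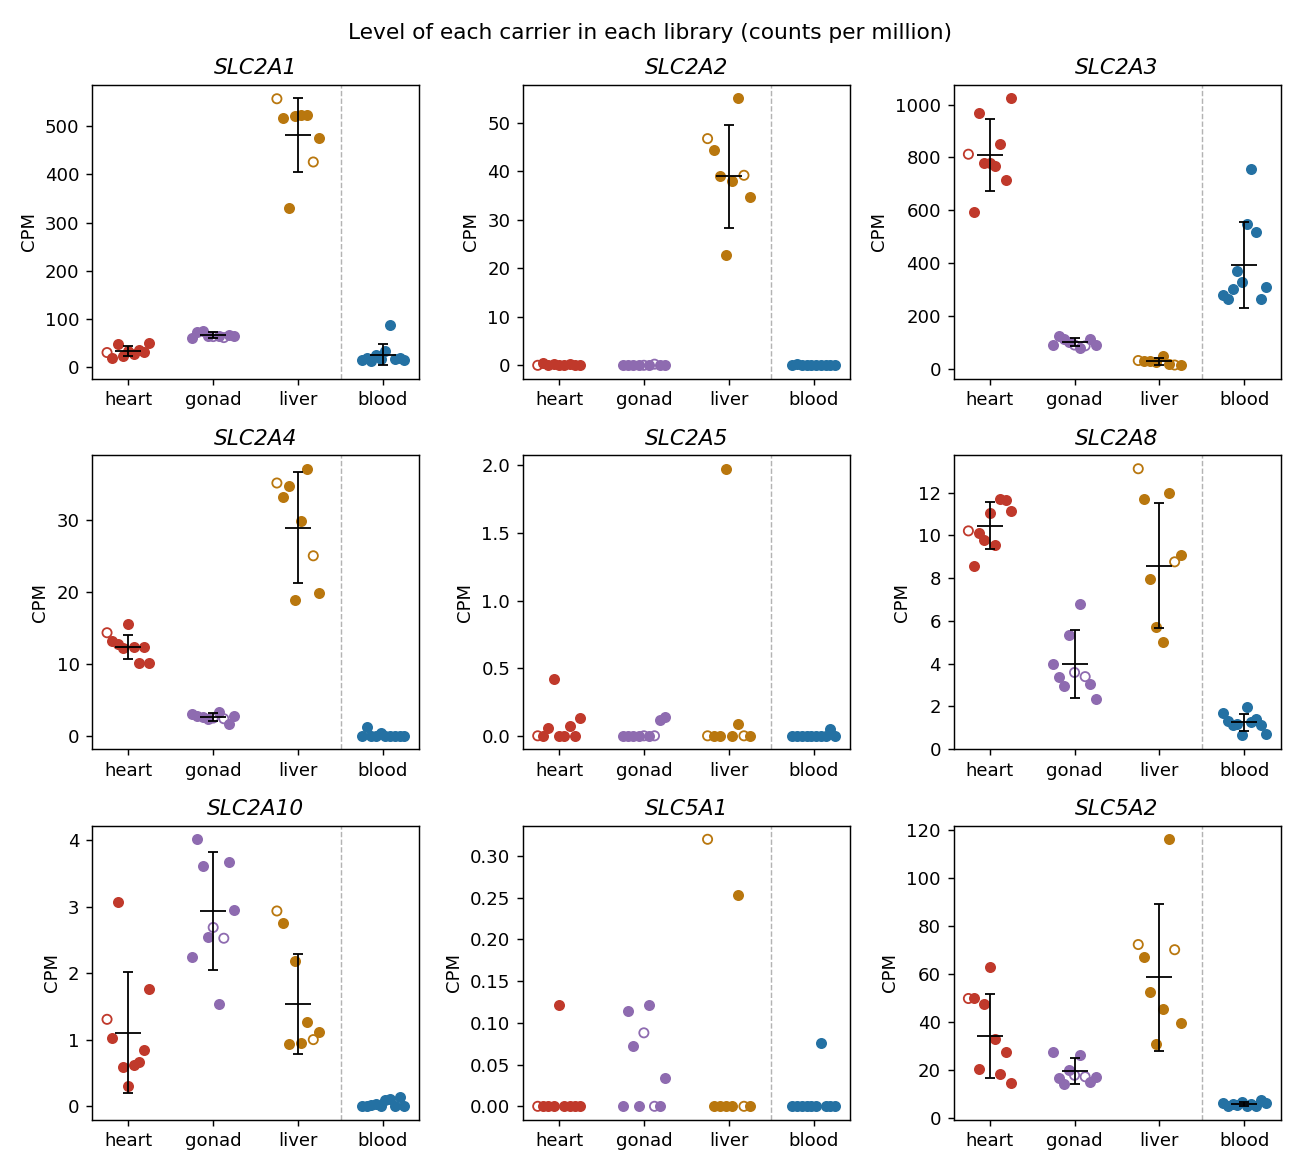
CPM of each carrier (vertical axes, linear, a scale of its own per gene) in every heart, gonad, liver and blood library; each point is a library, open points are the 5 libraries that depend on others, and black bars are mean ± SD of the filled points where every library of the tissue had counts. SLC2A3 was highest in the heart (594 to 1024 CPM) and SLC2A1 in the liver (331 to 557 CPM), SLC2A2 had counts beyond a few in the liver alone, and SLC2A5 and SLC5A1 stayed near 0 in all tissues. The dashed line marks that blood is on a scale of its own.

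Of the facilitative carriers, SLC2A1 and SLC2A3 divided the organs in opposite orders. SLC2A1 (GLUT1), the carrier of basal glucose uptake in most fetal cells and in red cells, ranged from 331 to 557 CPM in the liver around a median of 519 (482 ± 76.1, SD, n = 6). It ranged from 59.9 to 75.7 CPM in the libraries labelled gonads, with a median of 65.0 (67.2 ± 5.44, SD, n = 7). In the heart it ranged from 19.0 to 49.999 CPM with a median of 32.1 (33.9 ± 11.1, SD, n = 8). The order liver, gonad, heart held without overlap between any pair of organs. The log2 fold change of heart against liver was -3.85 (SE 0.159, edgeR adjusted p = 5.60e-18). That of gonad against liver was -2.87 (SE 0.152, edgeR adjusted p = 1.29e-15). The heart was also lower than the labelled gonads (log2 fold change -0.98, SE 0.142, edgeR adjusted p = 1.47e-06). The 8 erythroid markers, all with at least 10 counts in every organ library, summed to 3798 to 6075 CPM in the liver, 75.8 to 157 in the heart and 18.5 to 50.05 in the labelled gonads. Their part in the SLC2A1 difference was not tested. In maternal blood SLC2A1 ranged from 12.2 to 87.5 CPM with a median of 18.5.

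SLC2A3 (GLUT3), a carrier of high affinity best known from neurons, placenta and white blood cells, was high in the heart, where it ranged from 594 to 1024 CPM with a median of 780 (810 ± 137, SD, n = 8). It ranged from 78.0 to 124 CPM in the labelled gonads with a median of 91.6 (102 ± 15.7, SD, n = 7). In the liver it ranged from 14.3 to 51.3 CPM with a median of 29.5 (29.5 ± 12.8, SD, n = 6). The lowest heart library was thus above the highest labelled gonad, and the lowest labelled gonad above the highest liver. The log2 fold change was 4.85 for heart against liver (SE 0.218, edgeR adjusted p = 3.50e-17). It was 3.03 for heart against gonad (SE 0.190, edgeR adjusted p = 1.26e-13) and 1.82 for gonad against liver (SE 0.190, edgeR adjusted p = 2.27e-09). Of the white blood cell markers, 3 neutrophil markers summed to 0 to 2.97 CPM in the heart and 3 T cell markers to 0 to 1.35. There the 3 B cell markers summed to 2.80 to 7.75 CPM and the 4 macrophage markers to 7.65 to 11.1. The 3 platelet markers summed to 16.7 to 41.7 CPM in the heart, 6.28 to 12.3 in the labelled gonads and 283 to 445 in the liver. The part of blood cells in the SLC2A3 levels was not tested. In maternal blood SLC2A3 ranged from 265 to 757 CPM with a median of 321, beside 813 to 2160 CPM for the same neutrophil markers.

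SLC2A2 (GLUT2), the low-affinity carrier of hepatocytes, pancreatic beta cells and absorptive epithelia, which also carries fructose, was a liver transcript. It had 321 to 1305 counts in every liver library, or 22.6 to 55.0 CPM with a median of 39.1 (38.9 ± 10.7, SD, n = 6). In the heart it had 18 counts in all, spread over 3 of 9 libraries, and in the labelled gonads 28 counts over 4 of 9. In maternal blood 14 counts came from 1 of 10 libraries. The fitted log2 fold changes were -8.75 for heart against liver (SE 0.762, edgeR adjusted p = 6.51e-11) and -9.30 for gonad against liver (SE 0.754, edgeR adjusted p = 1.29e-11). With so few counts outside the liver their size depends on the prior count of the fit. The 5 hepatocyte markers summed to 26339 to 51466 CPM in the liver, at most 51.7 in the heart and at most 13.0 in the labelled gonads.

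SLC2A4 (GLUT4), the carrier that insulin moves to the surface of muscle and fat cells, was higher in the liver libraries than in the heart. The liver ranged from 18.9 to 37.1 CPM with a median of 31.5 (28.9 ± 7.76, SD, n = 6), and the heart from 10.1 to 15.5 CPM with a median of 12.4 (12.3 ± 1.71, SD, n = 8). The labelled gonads were lowest, at 1.63 to 3.33 CPM with a median of 2.62 (2.63 ± 0.548, SD, n = 7). No pair of organs overlapped. The heart against liver log2 fold change was -1.22 (SE 0.154, edgeR adjusted p = 8.98e-08). The heart exceeded the labelled gonads by 2.28 (SE 0.156, edgeR adjusted p = 9.15e-13), and gonad against liver was -3.50 (SE 0.166, edgeR adjusted p = 9.95e-17). All 3 differences passed in each of the 15 other settings. The 5 cardiomyocyte markers summed to 19124 to 35409 CPM in the heart and 4.58 to 1919 in the liver, where ACTC1 reached 31997 counts in 1 library and MYH6 had at most 38. Their part in the SLC2A4 levels of the liver was not tested. Maternal blood had counts of SLC2A4 in 2 of 10 libraries, 50 and 12 counts.

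SLC2A5 (GLUT5), the dedicated fructose carrier of the intestine, was close to absent. It had at most 28 counts in any library, and 28 of the 30 counts found in the 8 livers came from the liver of fetus 4. Counts were found in 4 of 9 hearts, 2 of 9 labelled gonads, 2 of 8 livers and 1 of 10 blood libraries. No organ contrast was called for SLC2A5 (edgeR adjusted p of 0.0763 to 0.447). Single fetuses moved gonad against liver, fitted at -2.98 (SE 1.47): it was called without fetus 9 (-3.79, edgeR adjusted p = 0.0419) or fetus 10 (-3.96, edgeR adjusted p = 0.0347), which held all the counts of the labelled gonads, and turned to 1.11 (edgeR adjusted p = 0.472) without fetus 4. DESeq2 gave 0.70 (adjusted p = 0.866). At these counts no direction can be read for SLC2A5. The gene was below the count minimum of the weight fits in all 4 tissues.

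SLC2A8 (GLUT8), a carrier held on membranes inside the cell, separated the labelled gonads from the other organs. It ranged from 8.59 to 11.7 CPM in the heart with a median of 10.2 (10.5 ± 1.11, SD, n = 8), from 5.02 to 13.1 in the liver with a median of 8.93 (8.58 ± 2.93, SD, n = 6) and from 2.34 to 6.81 in the labelled gonads with a median of 3.39 (3.98 ± 1.58, SD, n = 7). The liver range spanned that of the heart and overlapped that of the labelled gonads, while heart and labelled gonads did not overlap. The heart against gonad log2 fold change was 1.43 (SE 0.208, edgeR adjusted p = 1.48e-06) and gonad against liver was -1.24 (SE 0.212, edgeR adjusted p = 9.67e-06). Heart against liver was not called (0.19, SE 0.210, edgeR adjusted p = 0.468). In blood SLC2A8 ranged from 0.674 to 1.96 CPM with a median of 1.23.

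SLC2A10 (GLUT10), a carrier of the endoplasmic reticulum and Golgi needed for the artery wall, had its highest median in the labelled gonads. It ranged from 1.54 to 4.01 CPM there with a median of 2.69, from 0.302 to 3.07 in the heart with a median of 0.841 and from 0.942 to 2.93 in the liver with a median of 1.19. All 3 ranges overlapped. The heart was lower than the labelled gonads (log2 fold change -1.33, SE 0.370, edgeR adjusted p = 0.00394). Gonad against liver (0.80, SE 0.380) missed the threshold with an edgeR adjusted p of 0.0658 and passed it with the fetus as a block (1.07, SE 0.409, edgeR adjusted p = 0.0344). Leaving out one fetus at a time moved that adjusted p between 0.0358 (without fetus 1) and 0.167 (without fetus 9). Heart against liver was not called (-0.53, SE 0.379, edgeR adjusted p = 0.236) but was without fetus 3, whose heart had the 3.07 CPM (-1.05, edgeR adjusted p = 0.0172). Blood had at most 6 counts.

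The sodium-coupled pair differed in how often it was counted. SLC5A1 (SGLT1), the glucose carrier of the intestinal brush border, had at most 6 counts in any library and 38 counts in all 36, and the organ contrasts gave edgeR adjusted p-values of 0.125 to 0.684. Without fetus 5, whose heart held the only heart counts, SLC5A1 was called lower in the heart than in the labelled gonads (edgeR adjusted p = 0.0282) and the liver (0.0136), which rests on totals of at most 22 counts in the labelled gonads and 12 in the liver. SLC5A2 (SGLT2), the carrier that recovers glucose in the kidney tubule, was counted in every library. It ranged from 30.8 to 116 CPM in the liver with a median of 59.6 (58.5 ± 30.7, SD, n = 6). In the heart it ranged from 14.4 to 62.8 CPM with a median of 32.7 (34.3 ± 17.4, SD, n = 8), and in the labelled gonads from 14.2 to 27.4 with a median of 17.2 (19.5 ± 5.36, SD, n = 7). The heart overlapped both other organs, and the labelled gonads lay below every liver. The log2 fold change was -1.69 for gonad against liver (SE 0.267, edgeR adjusted p = 3.04e-06) and 0.91 for heart against gonad (SE 0.257, edgeR adjusted p = 0.00430). Heart against liver was -0.78 (SE 0.263, edgeR adjusted p = 0.0130) and was lost without fetus 8, whose liver had the 116 CPM (-0.50, edgeR adjusted p = 0.0963). In blood SLC5A2 ranged from 4.89 to 7.55 CPM with a median of 5.94.

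SLC5A2 is the one member whose span overlaps another annotated gene, RUSF1, in the RefSeq table. Whether reads were counted by strand is not given in the sources used here, so reads of the pair may not be fully told apart. RUSF1 had 4 to 46 counts in the heart, 35 to 123 in the labelled gonads, 0 to 56 in the liver and 34 to 162 in blood. SLC5A2 had 435 to 1129, 760 to 1308, 436 to 2751 and 146 to 308 counts in the same tissues. The 10 kidney markers, among which SLC34A1 and UMOD mark the mature tubule, summed to 267 to 316 CPM in the labelled gonads, 187 to 351 in the liver and 8.58 to 15.3 in the heart. Of these 10, 8 had at least 10 counts in every labelled gonad, 5 in every liver and 4 in every heart. The sums alone thus do not compare kidney cells between the organs. UMOD had counts in 1 labelled gonad, 4 counts, and SLC34A1 had 0 to 107 there. The part of kidney cells in the SLC5A2 levels was not tested.

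**Figure D2:**
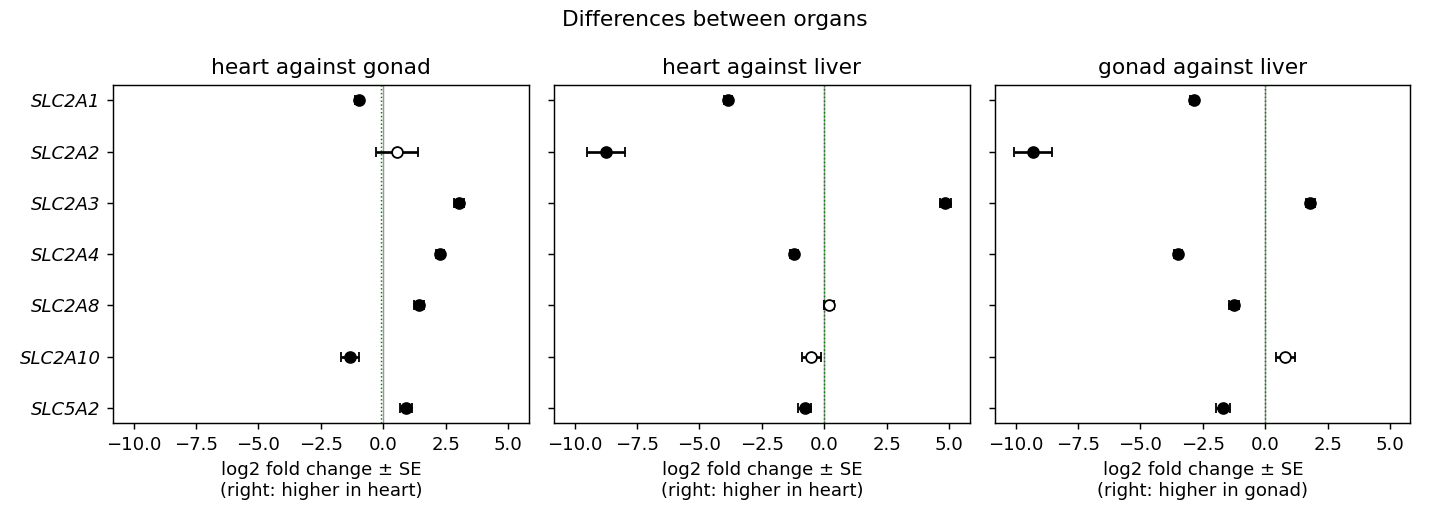
Log2 fold change ± SE (horizontal axes) of the 7 carriers that had at least 10 counts in 8 organ libraries, for heart against gonad, heart against liver and gonad against liver; filled points have an edgeR adjusted p under 0.05, open points do not, the grey line is 0 and the dotted line the median of all genes. SLC2A3 lay to the right of 0 in all 3 panels (3.03, 4.85 and 1.82), and SLC2A1 to the left (-0.98, -3.85 and -2.87).

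Counted over the members, 6 of 9 were called for heart against gonad (4 higher in the heart, 2 lower), where 46.6% of the 25095 genes tested were called, 23.5% higher in the heart and 23.1% lower. For heart against liver 5 of 9 were called (1 higher in the heart, SLC2A3, and 4 lower), where 58.6% of all genes were called, 27.9% higher in the heart and 30.7% lower. For gonad against liver 6 of 9 were called (1 higher in the labelled gonads, again SLC2A3, and 5 lower), where 64.4% of all genes were called, 30.8% higher in the labelled gonads and 33.6% lower. Set against these backgrounds, the counts are no result about the members. The median log2 fold change over the members was 0.91 for heart against gonad (all genes -0.08), -1.22 for heart against liver (all genes 0) and -1.69 for gonad against liver (all genes 0). The fitted values of SLC2A2, SLC2A5 and SLC5A1 in these medians depend on the prior count. The 3 contrasts share libraries and are not independent of each other.

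For 7 members with enough counts, the genes with the most similar pattern of log2 CPM over the 26 organ libraries were found by Pearson's r, as a description that mostly follows the organ means. SLC2A1 was nearest to ERG28, SWAP70 and TM4SF4 (r of 0.99 each), and SLC2A2 to FKBP11, KNG1 and P2RY6 (0.98 each). SLC2A3 was nearest to ATP1B1, a subunit of the sodium pump (0.99), NDRG4 and DES, which encodes the muscle filament desmin (0.98 each). SLC2A4 was nearest to VWF, the von Willebrand factor gene (0.99), OGDH and RASSF5 (0.98 each). SLC2A8 was nearest to PPP1R35 (0.93), RNPEPL1 and TIMM44 (0.91 each), SLC2A10 to ATP7A (0.91), TXNDC15 (0.88) and CCDC126 (0.87), and SLC5A2 to MLXIP (0.95), TGFBRAP1 and SLC25A28 (0.94 each). The last 3 sets were less close than those of SLC2A1 to SLC2A4.

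Along fetal weight no member was called in any tissue, by a straight line or by a spline with 3 degrees of freedom. The slopes are log2 changes per 0.1 g, and levels in these paragraphs are CPM scaled within the tissue, which differ from the organ-wide scale above. At least 10 counts in 4 libraries were required, which left 6 members in the heart, 6 in the labelled gonads, 7 in the liver and 4 in blood. Of all genes tested, the line called 6.79% in the heart, 2.65% in the liver and 0% in the labelled gonads and blood, and the spline called 0%, 1.89%, 0% and 0.123% in the same order. Upward lines made up 5.27% of all genes in the heart and 0.494% in the liver, and downward lines 1.53% and 2.16%. At an unadjusted p under 0.05 the line found 1 of 6 members in the heart (29% of all genes), 1 of 7 in the liver (17%), 0 of 6 among the labelled gonads (5.52%) and 0 of 4 in blood (9.66%). The member found in the heart (SLC5A2) and that in the liver (SLC2A3) both had downward lines, as had 12.5% and 11.2% of all genes there, while 16.5% and 5.81% had upward lines. In the labelled gonads 3.01% of genes had upward and 2.51% downward lines, and in blood 4.68% and 4.98%. The spline found 0 of 6 (8.1%), 2 of 7 (17.6%), 0 of 6 (12.4%) and 2 of 4 (9.74%) in that order. DESeq2 called SLC5A2 in the heart and SLC2A3 in the liver by the line, SLC2A3 and SLC5A2 in the liver and SLC2A3 in blood by the spline. In each of these fits DESeq2 also called more of all genes than edgeR did, so the edgeR shares are no background for its calls (counts further below).

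**Figure D3:**
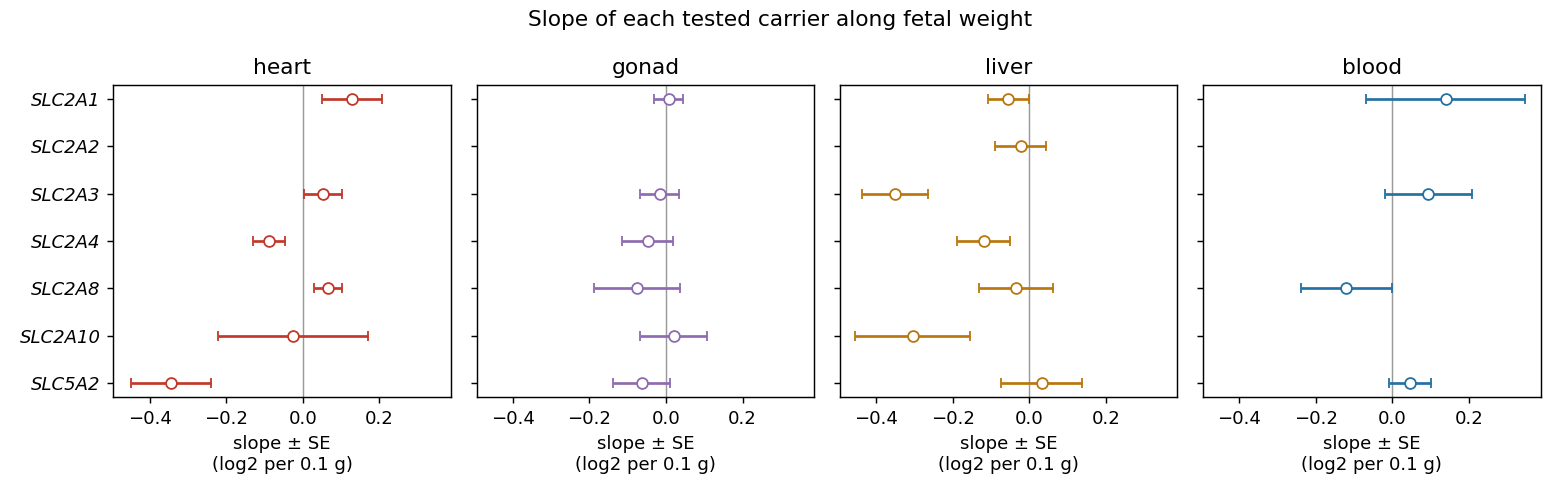
Slope ± SE of each tested carrier (log2 change per 0.1 g of fetal weight, horizontal axes) in the heart, labelled gonads, liver and blood; a gene without a point was below the count minimum. The slopes farthest from 0 were those of SLC2A3 in the liver (-0.35) and SLC5A2 in the heart (-0.35), and none passed the edgeR threshold.

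In the liver SLC2A3 had its lowest values in the 3 heaviest fetuses, though the slope missed the threshold. The 5 ET_D7 livers had 24.9, 26.1, 26.5, 23.4 and 41.5 CPM for fetuses 1 to 5, and the 3 ET_D9 livers had 13.7, 12.7 and 10.6 CPM for fetuses 8, 9 and 10. Liver 9 was close to a weighted sum of livers 8 and 10, and liver 1 to a multiple of liver 2. These are therefore not 5 against 3 independent values. The transfer groups did not overlap, but how many of all genes are likewise apart was not counted. Sums of blood cell markers are on the organ-wide scale. The 3 B cell markers summed to 12.2, 20.2, 17.1, 8.89 and 22.6 CPM in the livers of fetuses 1 to 5. They summed to 3.50, 3.004 and 1.44 CPM in those of fetuses 8, 9 and 10, without overlap but with the same limits. Of these CD79A had 127 to 643 counts in the livers of fetuses 1, 2, 3 and 5 and 0 to 1 in the other 4. Other blood cell lists overlapped between the transfer groups. The neutrophil markers summed to 60.8 to 132 CPM in the ET_D7 livers and 68.0 to 88.3 in the ET_D9 livers. The macrophage markers summed to 44.2 to 79.2 and 53.1 to 75.5 CPM in the same order. For platelet markers the sums were 283 to 445 and 327 to 409 CPM, and for erythroid markers 3798 to 4709 and 4033 to 6075. The part of these cells in the SLC2A3 levels was not tested. The slope of SLC2A3 was -0.35 (SE 0.0853, edgeR p = 0.00234, adjusted p = 0.0663), and DESeq2 gave an adjusted p of 0.00164. Without fetus 5, which had the highest level, the slope was -0.31 (edgeR adjusted p = 0.0290), and over all fetuses left out in turn the adjusted p ranged from 0.0290 to 0.285. Without livers 1 and 9 it was -0.40 (edgeR adjusted p = 0.289). With the transfer group as a term the slope turned to 0.09 (edgeR adjusted p = 0.933), so weight and transfer group cannot be told apart for SLC2A3 in the liver. In the heart the slope of SLC2A3 was 0.05 (SE 0.0488, edgeR adjusted p = 0.499), with 465 to 777 CPM. The heart slope minus the liver slope was 0.38 (SE 0.0895, edgeR adjusted p = 0.00959) in a fit over all 26 organ libraries, added after the values were seen, in which 8.56% of 18285 genes were called. In the same fit 0.0164% were called for heart minus gonad and 5.41% for gonad minus liver, where SLC2A3 had 0.29 (edgeR adjusted p = 0.0640). The heart minus liver difference of SLC2A3 was 0.42 (edgeR adjusted p = 0.0607) over the 21 independent libraries and 0.30 (edgeR adjusted p = 0.166) without fetus 10.

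In the heart SLC5A2 was lower in most of the heavier fetuses. The 5 ET_D7 hearts had 37.9, 39.3, 15.8, 35.7 and 47.2 CPM for fetuses 1 to 5, and the 4 ET_D9 hearts had 25.1, 13.9, 21.4 and 10.9 CPM for fetuses 6, 8, 9 and 10. Fetus 3 alone put the transfer groups into overlap. The slope was -0.35 (SE 0.104, edgeR p = 0.00758, adjusted p = 0.0682), with a DESeq2 adjusted p of 0.0122. Without fetus 3 it was -0.38 (edgeR adjusted p = 0.0128), without fetus 9 -0.46 (edgeR adjusted p = 0.0426) and without fetus 10 -0.28 (edgeR adjusted p = 0.402). With the transfer group as a term it was -0.22 (edgeR adjusted p = 0.706). The hearts of fetuses 3, 8, 9 and 10, with the lowest SLC5A2 levels, had 23.5, 25.5, 28.5 and 17.1% mitochondrial counts. The hearts of fetuses 1, 2, 4, 5 and 6 had 45.1, 57.3, 41.5, 40.8 and 39.0%. The cardiomyocyte markers summed to 19124 CPM in the heart of fetus 3, 21774 in that of fetus 10 and 29010 to 35409 in the others. The part of library composition in the SLC5A2 levels was not tested. With nuclear genes alone in the scaling the slope was -0.33 (edgeR adjusted p = 0.0762). In the liver SLC5A2 followed no line (slope 0.03, SE 0.105, edgeR adjusted p = 0.914), with 26.4 to 55.6 CPM in ET_D7 and 29.6 to 79.3 CPM in ET_D9.

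The other members varied less along weight or varied with single fetuses. SLC2A1 in the heart had 14.9 to 38.0 CPM and a slope of 0.13 (SE 0.0783, edgeR adjusted p = 0.298), which passed without fetus 3 (0.18, edgeR adjusted p = 0.0438). SLC2A1 in the liver had a slope of -0.05 (SE 0.0538, edgeR adjusted p = 0.673). SLC2A10 in the liver had 0.763 to 2.26 CPM in ET_D7 and 0.827 to 0.865 CPM in ET_D9, with a slope of -0.30 (SE 0.150, edgeR adjusted p = 0.343). For the labelled gonads the 6 slopes lay between -0.08 and 0.02. SLC2A8 there passed the spline test over the 7 independent libraries (edgeR adjusted p = 0.00176) but not over all 9 (edgeR adjusted p = 0.415). Over those 7 libraries the spline also called many of all genes, against 0 over all 9 (counts further below), so the call is not particular to SLC2A8.

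**Figure D4:**
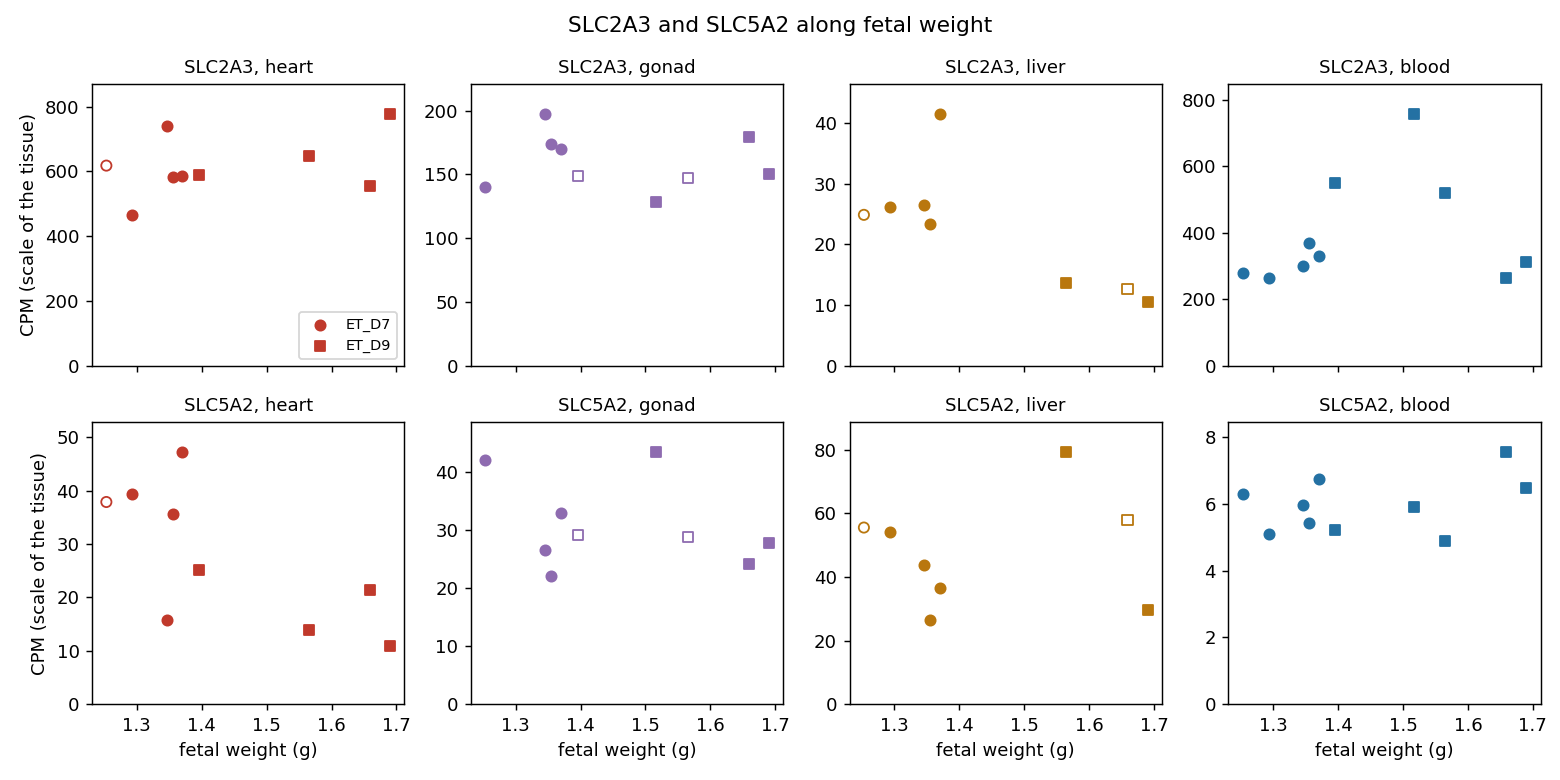
SLC2A3 (top) and SLC5A2 (bottom) in CPM on the scale of each tissue (vertical axes, from 0) against fetal weight in g, in the heart, labelled gonads, liver and maternal blood; circles are ET_D7, squares ET_D9, and open symbols the 5 libraries that depend on others. SLC2A3 in the liver lay at 10.6 to 13.7 CPM in ET_D9 and at 23.4 to 41.5 CPM in ET_D7, and in blood the highest values (518 to 757 CPM) belonged to heifers of middle fetal weight.

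In maternal blood SLC2A3 stood highest in the heifers carrying fetuses 6, 7 and 8, at 550, 757 and 518 CPM. The 5 ET_D7 heifers had 265 to 370 CPM, and the heifers of fetuses 9 and 10 had 265 and 312. The spline gave an edgeR p of 0.000846 (adjusted p = 0.162) and the line a slope of 0.09 (SE 0.114, edgeR adjusted p = 0.828), while the DESeq2 spline gave an adjusted p of 1.20e-05. SLC2A1 was highest in the heifer of fetus 7 (87.5 CPM) and next in that of fetus 6 (34.8 CPM), with a spline p of 0.0192 (edgeR adjusted p = 0.438). The neutrophil markers summed to 1875, 813 and 1458 CPM in the heifers of fetuses 6, 7 and 8, and to 1058 to 2160 CPM in the others; their part was not tested.

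The wider set of hexose genes was listed by role beside the members, and 31 of the 32 found in the table had counts in the organs. For heart against gonad 20 of 31 were called (15 higher in the heart, 5 lower), beside 46.6% of all genes (23.5% higher, 23.1% lower). For heart against liver 26 were called (11 higher in the heart, 15 lower), beside 58.6% (27.9% higher, 30.7% lower), and for gonad against liver 28 (10 higher in the labelled gonads, 18 lower), beside 64.4% (30.8% higher, 33.6% lower). Most lists would thus hold many called genes, and nothing particular to the hexose genes is read from these counts. Among the other sodium-coupled carriers, all 4 tested were lower in the heart than in the liver. SLC5A4 was counted in every liver (22.9 to 50.9 CPM) and in 1 heart and 1 labelled gonad (heart against liver log2 fold change -9.00, SE 0.844, edgeR adjusted p = 2.97e-10). SLC50A1, the SWEET-type glucose carrier, had 66.9 to 164 CPM in the liver, 5.66 to 12.8 in the heart and 3.23 to 5.56 in the labelled gonads (heart against liver -3.77, SE 0.171, edgeR adjusted p = 4.16e-17). SLC2A9, a urate and hexose carrier, had 20.2 to 46.4 CPM in the liver and 3.003 to 6.99 in the heart, and 174 to 322 CPM in maternal blood.

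Of the enzymes that trap or break down hexoses, 6 of 8 were called between heart and labelled gonads, 6 of 8 between heart and liver and 7 of 8 between labelled gonads and liver, beside 46.6%, 58.6% and 64.4% of all genes. KHK, which phosphorylates fructose, was lower in the liver than in the heart (heart against liver 0.65, SE 0.157, edgeR adjusted p = 0.000892). Of the hexokinases, HK2 was higher in the heart than in the liver (2.58, SE 0.266, edgeR adjusted p = 1.90e-09), and HKDC1 was lower (-6.90, SE 0.572, edgeR adjusted p = 2.30e-11). The polyol pathway genes, which make fructose from glucose, split between the organs. AKR1B1 was higher in the heart than in the liver (2.38, SE 0.133, edgeR adjusted p = 4.32e-15) and SORD lower (-2.62, SE 0.142, edgeR adjusted p = 2.15e-15). G6PC1, the catalytic subunit that releases glucose in adult liver, had counts in 3 of 8 livers and at most 26. G6PC3, the form found in most tissues, had 169 to 344 CPM in the liver, 37.7 to 107 in the heart and 27.2 to 47.4 in the labelled gonads (heart against liver -1.53, SE 0.187, edgeR adjusted p = 5.00e-08, and gonad against liver -2.64, SE 0.194, edgeR adjusted p = 1.55e-12). SLC37A4, which carries glucose 6-phosphate to these enzymes, was called lower in the labelled gonads than in the liver (-0.89, SE 0.203, edgeR adjusted p = 0.000421) but not in the heart against the liver (-0.20, SE 0.203, edgeR adjusted p = 0.416).

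Of the 8 genes that steer carrier traffic and abundance, 5 were higher and 2 lower in the heart than in the liver, beside 27.9% and 30.7% of all genes. TXNIP, which restrains glucose uptake, had 70.0 to 111 CPM in the heart and 13.4 to 27.5 in the liver (2.27, SE 0.135, edgeR adjusted p = 1.75e-14), and 645 to 1159 CPM in blood. TBC1D4, which holds SLC2A4 vesicles back until insulin acts, was higher in the heart than in the liver (1.64, SE 0.213, edgeR adjusted p = 1.42e-07). Along weight the line called 2 of 27 of the wider set in the heart, where it called 6.79% of all genes (TBC1D4, slope 0.24, SE 0.0576, edgeR adjusted p = 0.0420, and SLC2A13, slope -0.26, SE 0.0669, edgeR adjusted p = 0.0492). It called 1 of 29 in the liver, where it called 2.65% of all genes (SLC5A10, slope -0.83, SE 0.168, edgeR adjusted p = 0.0400). It called 0 of 29 genes among the labelled gonads and 0 of 25 in blood. These called counts are near the shares of all genes. At an unadjusted p under 0.05 the line found 13 of 27 in the heart (29% of all genes) and 5 of 29 in the liver (17%). It found 2 of 29 among the labelled gonads (5.52%) and 3 of 25 in blood (9.66%). The spline found 1 of 27 in the heart (8.1%), 4 of 29 in the liver (17.6%), 3 of 29 among the labelled gonads (12.4%) and 7 of 25 in blood (9.74%). The line in the heart and the spline in blood were above those shares, and the cause was not tested.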

How the data were processed

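The authors deposited raw counts per gene for 36 libraries; per the labels and the study's methods, reads were trimmed with Trimmomatic, mapped with STAR 2.7.0b to the ARS-UCD1.3 assembly and counted with featureCounts of Subread 2.0.3. Symbols were found for 31630 of 35092 identifiers. Counts were tested with edgeR 4.0.16 in R 4.3.3 (TMM, quasi-likelihood F test, Benjamini-Hochberg adjustment over all genes tested, threshold 0.05): 3 organ contrasts on genes with any count, and a line or a natural spline of fetal weight within each tissue on genes that reached 10 counts in 4 or more libraries. The SE is the effect divided by the square root of F. DESeq2 1.42.0, another filter, scaling by nuclear genes, the transfer group as a term, the fetus as a block and leaving out each fetus were the alternatives, with a fit on the 21 independent organ libraries and the slope difference of SLC2A3 between organs added after seeing the data. Organs of the same fetus come from one animal, which pairs them; the median correlation of their deviations was 0.05 for heart and gonad, 0.02 for heart and liver and 0.01 for gonad and liver. All members are named, the other hexose and marker genes by list, and the 3 genes most like each member by r. The members and lists were chosen with earlier results of these data known. The scripts' tests were checked on simulated counts. Quasi-likelihood p-values cover the spread between these libraries.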

Additional observations from a re-analysis of the deposited data

Results flagged for a closer look

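Of 23 sets of libraries tested for a single value far from the rest, 1 stood out. Chance alone would make about 1 in 20 sets stand out, so 1 of 23 is near what chance gives. SLC2A1 in the blood of the heifer carrying fetus 7 had 87.5 CPM, against 34.8 CPM in the next heifer and 12.2 CPM in the lowest; the gap was 0.70 of the whole range.

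The slope of SLC2A3 along fetal weight differed between the heart and the liver by 0.38 log2 units per 0.1 g (SE 0.0895, edgeR adjusted p = 0.00959). The slope was 0.05 in the heart and -0.35 in the liver when each organ was fitted alone, and the test of the difference missed the threshold over the 21 independent libraries (0.42, edgeR adjusted p = 0.0607) and without fetus 10 (0.30, edgeR adjusted p = 0.166).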

How the results depend on the processing

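The 3 organ counts of members called kept within 1.5 times under every alternative: 6 to 7 for heart against gonad, 4 to 6 for heart against liver and 6 to 7 for gonad against liver over the fetuses left out in turn. With the fetus as a replicate block they were 6, 5 and 7, and over the 21 independent libraries, a choice made after seeing the data, 6, 5 and 6. The block changed one call, SLC2A10 for gonad against liver. Requiring a log2 fold change above 1 left 4, 4 and 6. No called member changed direction. DESeq2 moved the median of all genes for gonad against liver from 0 to -0.27. The weight counts of 0 were less stable. By the line DESeq2 called 1 member in the heart and 1 in the liver, and leaving out one fetus gave 0 to 2 in the heart (2 without fetus 3, 1 without fetus 9) and 0 to 1 in the liver (1 without fetus 5). By the spline DESeq2 called 2 in the liver and 1 in blood, and the independent libraries gave 1 in the labelled gonads. The cause was not tested. Over all genes the line in the heart called 1104, against 3007 with DESeq2, 706 with a filter of 1 count, 3925 without fetus 3, 788 without fetus 6, 1650 without fetus 9 and 0 without fetuses 1, 2, 4, 5, 8 or 10 or with the transfer group as a term. In the liver it called 440, against 1444 with DESeq2, 157 with a filter of 1 count, 0 with the transfer group as a term, 181 over the independent libraries and 26 to 767 with a fetus left out; in blood it called 0, against 108 with DESeq2. The spline in the labelled gonads called 0, against 1331 with DESeq2 and 3756 over the independent libraries, in the heart 0, against 539 with DESeq2, in the liver 314, against 1732 with DESeq2 and 566 over the independent libraries, and in blood 20, against 483 with DESeq2. SLC2A5 and SLC5A1 had under 30 counts in every library. SLC2A10 had 5 to 110 counts in the heart and 16 to 59 in the liver. The results of these 3 members rest on few counts, and the part of depth was not tested.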

Other observations

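Hexokinase 3 (HK3), an enzyme known from white blood cells, had 68.3 to 209 CPM in the heart, 1.65 to 2.62 in the libraries labelled gonads and 1.76 to 7.09 in the liver (heart against gonad log2 fold change 6.10, SE 0.263, edgeR adjusted p = 3.09e-17). The 3 neutrophil markers summed to at most 2.97 CPM in the heart and the 4 macrophage markers to at most 11.1. In maternal blood HK3 was 892 CPM in the heifer of fetus 7 and 439 CPM in that of fetus 6, and 206 to 381 CPM in the other 8. HK2, the hexokinase of muscle and fat, was 173 CPM in the heifer of fetus 7 and 45.1 to 88.2 CPM in the other 9. SLC2A1 (87.5 CPM) and SLC2A3 (757 CPM) were also highest in the heifer of fetus 7, while SLC2A9 had 176 CPM there within a range of 174 to 322.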
